A study of Mus musculus with 11 samples.

Results

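The BMP ligands Bmp2, Bmp3, Bmp4, Bmp5, Bmp6 and Bmp7 and the BMP receptors Bmpr1a, Bmpr1b, Bmpr2 and Acvr1 were followed across 6 cell populations sorted from mouse bone. The 10 genes were taken by symbol from the platform annotation. Where several probe sets were assigned to one gene alone, the one with the greatest average signal on the 11 arrays represents it. This gave 9 of the 10 genes, among 18193 genes measured in all. No probe set was listed for Bmp3 in the annotation used, and Bmp3 was not analysed here. The 9 genes had 24 probe sets between them.

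RNA from freshly sorted, uncultured cells of male and female mice was hybridized to Affymetrix arrays, and the values are log2 signals, so that 1 log2 unit is a factor of 2. P-SSCs, the periosteal skeletal stem cells (2 arrays), were CD45-CD31-Ter119-CD105+CD140a+ Mx1+Ocn- cells of periosteal tissue from Mx1Cre; RosaTomato; OsteocalcinGFP mice. BM-SSCs, the bone marrow skeletal stem cells (2 arrays), were Mx1+Nes+ cells with the same surface phenotype, from the marrow of Mx1Cre; RosaTomato; NestinGFP mice. Nes+ BMSCs, bone marrow stromal cells (1 array), were marrow cells with that phenotype that carried the Nestin reporter, whether or not they were Mx1+, and CD51+ BMSCs (2 arrays) were CD45-CD31-Ter119- marrow cells selected for CD51, a gate to which the study's methods add CD105+CD140a+. The 2 control populations were Osx+ cells (2 arrays), CD45-CD31-Ter119- cells carrying an Osterix-GFP reporter, and CD45+ hematopoietic cells of the marrow (2 arrays).

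Several features limit these groups as models. Mice with the Mx1Cre allele were lethally irradiated at 4 weeks of age, received wild-type marrow, and were later given the double-stranded RNA analogue pIpC to switch on the interferon-inducible Mx1 promoter that drives Cre. The Mx1+ label is therefore set by induction in irradiated hosts. The age at harvest, and the genotype and age of the donors of CD51+ and CD45+ cells, are not given in the sources used here. The sample records name periosteal tissue as the source of the Nes+ BMSCs, although the title names marrow. The study's methods describe the arrays as biological repeats.

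BMPs are secreted, dimeric ligands of the TGF-β superfamily, named for their capacity to induce bone. A BMP dimer brings together type I receptors (Bmpr1a, Bmpr1b, Acvr1) and type II receptors (chiefly Bmpr2), which are serine/threonine kinases. The type II receptor phosphorylates the type I receptor, which in turn phosphorylates Smad1, Smad5 and Smad9. These enter the nucleus with Smad4 and act on target genes such as the Id genes. In bone, the pathway promotes the commitment of skeletal progenitors to cartilage and bone, and secreted antagonists such as noggin and gremlin hold the ligands in check.

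Of the 5 measured ligands, Bmp4 (3.25 log2 units) and Bmp6 (-1.95) differed most in mean level between CD51+ BMSCs and Osx+ cells. These genes went in opposite directions, although neither passed in this comparison with all arrays. The sequences at their start sites are therefore shown first. RefSeq promoter windows (GRCm38.p6), which run from 250 bases before the annotated start to 50 after it, matched 7 of the 10 genes, in 9 windows. The capitals mark CCGCCC, the core of the GC box bound by Sp1-family factors, on either strand. The Bmp4 window lies on the minus strand at chr14:46390620-46390919 and that of Bmp6 on the plus strand at chr13:38345466-38345765.
Bmp4: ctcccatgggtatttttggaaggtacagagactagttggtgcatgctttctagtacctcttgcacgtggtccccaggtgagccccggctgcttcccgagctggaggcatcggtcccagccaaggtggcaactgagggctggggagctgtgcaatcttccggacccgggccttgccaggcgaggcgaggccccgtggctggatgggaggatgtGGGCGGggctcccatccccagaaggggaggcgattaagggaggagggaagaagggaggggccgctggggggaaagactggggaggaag
Bmp6: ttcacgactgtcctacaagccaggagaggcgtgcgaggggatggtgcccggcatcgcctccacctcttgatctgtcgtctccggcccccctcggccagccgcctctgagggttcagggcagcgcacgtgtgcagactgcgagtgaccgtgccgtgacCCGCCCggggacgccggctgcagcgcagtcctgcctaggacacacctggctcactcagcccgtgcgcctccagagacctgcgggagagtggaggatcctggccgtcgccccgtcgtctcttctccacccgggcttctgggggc
The Bmp4 window had a GC content of 64.0% with 12 CpG dinucleotides, and its single GC box core began 38 bases before the start site, on the strand opposite to the gene. The Bmp6 window had a GC content of 69.3% with 27 CpG dinucleotides, and its single core began 93 bases before the start site. Both were richer in G and C than the median of 52.7% over 27025 promoters. The same core was present in the windows of 5 of the 7 genes, against 35.9% of all promoters, counted on the first window of each gene. Of 3 other motifs searched on both strands, GGCGCC, the GC-rich Smad element, was in 2 of the 7 genes (3233 of the 27025 promoters). TATAAA was in 1 gene (14.2% of promoters), and TGTGGT, the Runx core, was in 0 (16.9% of promoters).

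In each SSC population the second array looked unlike the other 9 in the set, although not to the same extent. The median of 12 ribosomal protein genes was 7.08 on that P-SSC array. It was 11.71 on that BM-SSC array, against 11.97 to 12.87 on the others. The β-actin 3′ control probe set read 7.81 on that P-SSC array and 12.78 on that BM-SSC array, against 13.23 to 14.25 on the others, while the spiked bioB control read 13.76 and 12.31, against 6.51 to 11.85. Across all probe sets the 2 arrays correlated at r = 0.456 in P-SSCs and 0.771 in BM-SSCs, against 0.985 to 0.995 in the other replicated populations. Of the 9 genes, 7 were lower on array 2 than on array 1 in each of the 2 stem cell populations, by up to 5.51 log2 units. Counts of the 9 genes are therefore given with all 11 arrays and on the 9 arrays that remain without these 2. Of the 99 differences of these genes over the 11 comparisons, 27 had the opposite sign on the 9 arrays. On the 9 arrays each SSC population is a single array, which is taken to vary like the other populations.

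Sorting markers matched the labels in part. Ptprc, which encodes CD45, read 12.06 and 12.05 in CD45+ cells, but CD51+ BMSCs, a CD45- gate, also read 10.23 and 10.17. Sp7, the Osterix gene, was highest in Osx+ cells at 8.93 and 8.58. Pdgfra, which encodes CD140a, read 11.28 and 4.41 in P-SSCs, 10.95 and 6.90 in BM-SSCs, and 8.53 and 8.65 in Osx+ cells. Itgav, which encodes CD51, did not set the CD51+ BMSCs apart. It read 10.10 and 10.27 there, against 10.73 and 10.79 in Osx+ cells. The Mx1 gene itself was highest in CD45+ cells, at 7.03 and 6.72. It read 4.09 and 5.70 in P-SSCs and 4.92 and 4.28 in BM-SSCs. The Nes gene itself did not set the Nestin-reporter populations apart, with values between 5.26 and 7.42 on all arrays.

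**Figure D1:**
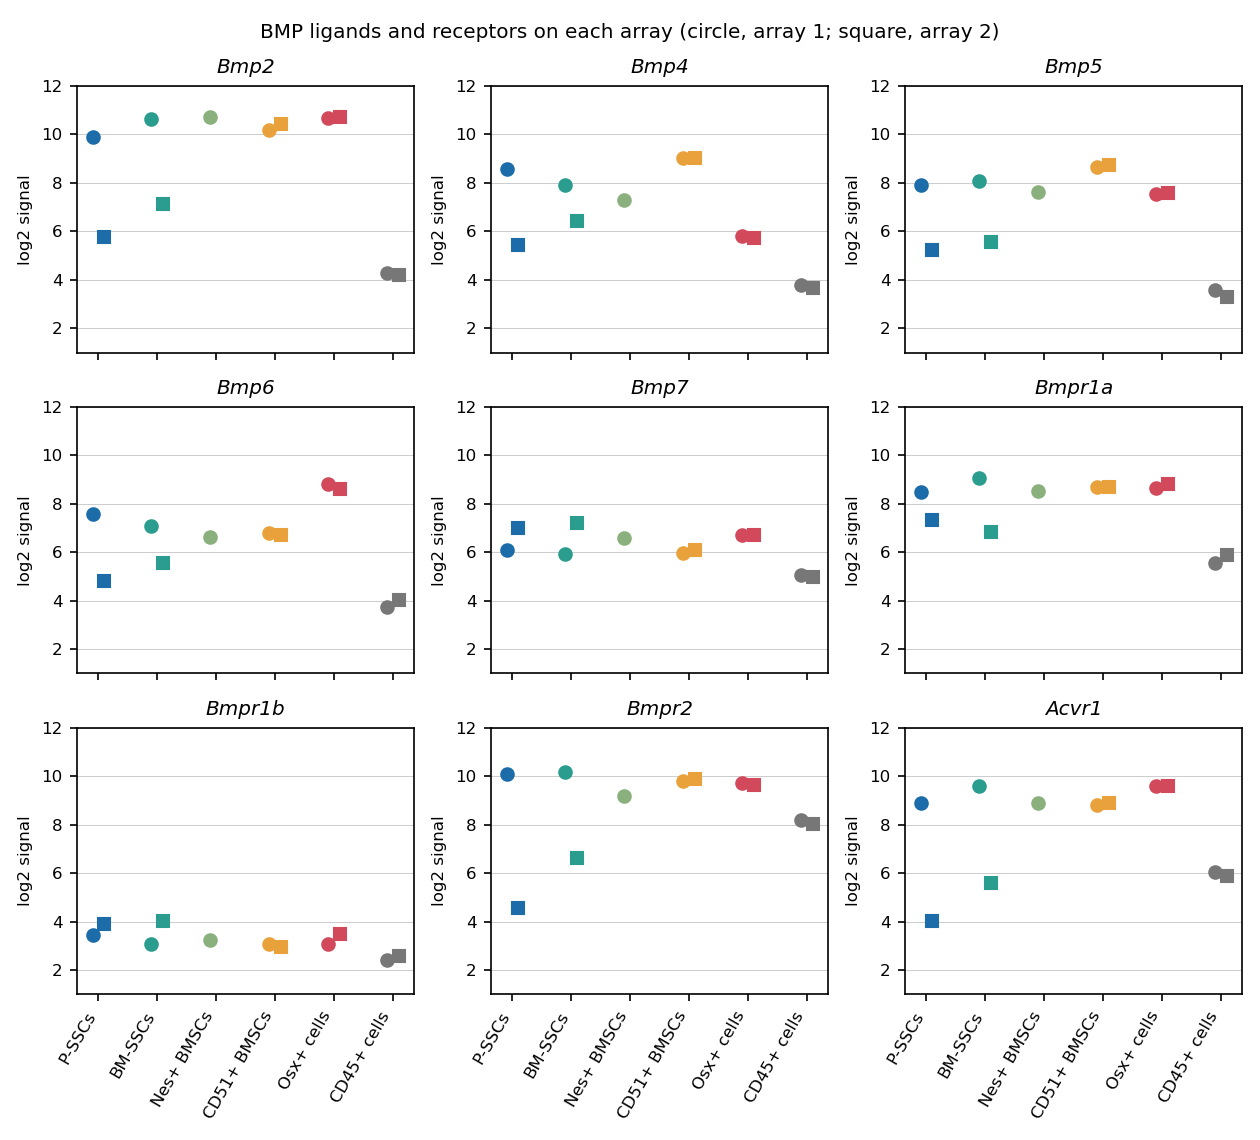
Log2 signal (vertical axis) of the 9 measured BMP ligands and receptors in the 6 populations (horizontal axis), with 1 point per array. Arrays 1 and 2 of CD51+ BMSCs, Osx+ cells and CD45+ cells lie within 0.41 log2 units of each other for every gene, whereas the second array of each SSC population is below the first for 7 of the 9 genes.

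Bmp2, a ligand required for fracture repair, was high in every stromal population and near the bottom of its range in CD45+ cells. It read 9.89 and 5.78 in P-SSCs (arrays 1 and 2), 10.63 and 7.13 in BM-SSCs, 10.71 in Nes+ BMSCs, 10.18 and 10.43 in CD51+ BMSCs, 10.66 and 10.71 in Osx+ cells, and 4.26 and 4.19 in CD45+ cells. Apart from array 2 of the 2 SSC populations, all 7 stromal arrays lay between 9.89 and 10.71. No stromal array overlapped the CD45+ cells.

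Bmp4, a ligand of mesenchymal cells and of early embryonic patterning, was the gene with the widest separation between CD51+ BMSCs and Osx+ cells. It read 8.57 and 5.43 in P-SSCs (arrays 1 and 2), 7.90 and 6.41 in BM-SSCs, 7.30 in Nes+ BMSCs, 9.03 and 9.03 in CD51+ BMSCs, 5.82 and 5.74 in Osx+ cells, and 3.81 and 3.68 in CD45+ cells. By group mean the order ran from CD51+ BMSCs through Nes+ BMSCs, BM-SSCs, P-SSCs and Osx+ cells to CD45+ cells. The P-SSC arrays fell on both sides of the Osx+ arrays, and the single Nes+ array lay between the 2 BM-SSC arrays, so these neighbours were not separated.

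Bmp6, which is best known as the liver signal that controls hepcidin and is also made in growth cartilage, was ordered differently. It read 7.59 and 4.82 in P-SSCs (arrays 1 and 2), 7.07 and 5.55 in BM-SSCs, 6.63 in Nes+ BMSCs, 6.80 and 6.72 in CD51+ BMSCs, 8.83 and 8.59 in Osx+ cells, and 3.75 and 4.04 in CD45+ cells. Both Osx+ arrays were above every other array. Nes+ BMSCs, BM-SSCs and CD51+ BMSCs were not separated, since the BM-SSC arrays lay on both sides of the others.

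**Figure D2:**
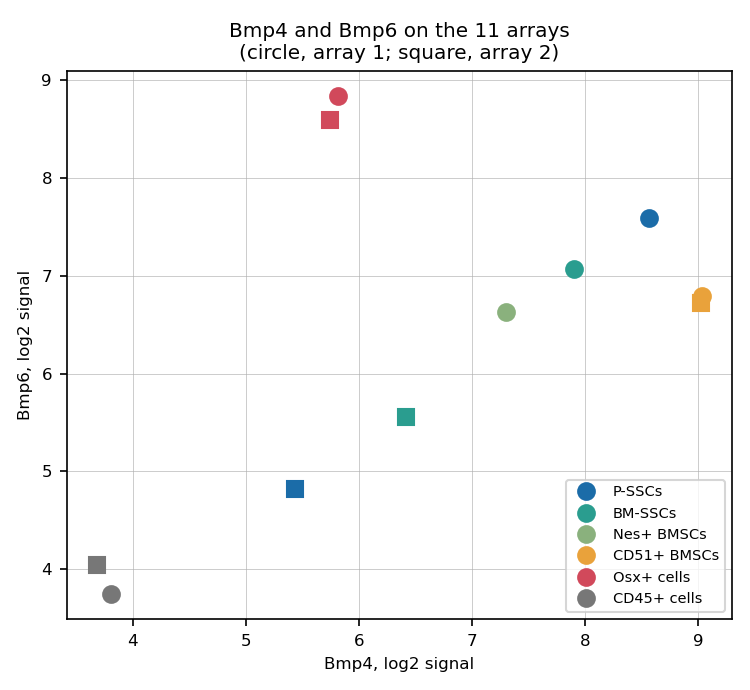
Log2 signal of Bmp4 (horizontal axis) and Bmp6 (vertical axis) on the 11 arrays, coloured by population. The Osx+ cells lie at the top with Bmp4 at 5.82 and 5.74, the CD51+ BMSCs at the far right with Bmp6 at 6.80 and 6.72, and the remaining arrays run from the CD45+ cells at the lower left towards array 1 of the P-SSCs.

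Bmp5, the product of the mouse short ear locus, followed Bmp4 in being highest in CD51+ BMSCs. It read 7.93 and 5.22 in P-SSCs (arrays 1 and 2), 8.08 and 5.58 in BM-SSCs, 7.61 in Nes+ BMSCs, 8.64 and 8.74 in CD51+ BMSCs, 7.53 and 7.57 in Osx+ cells, and 3.59 and 3.28 in CD45+ cells. The Osx+ cells and the Nes+ array were less than 0.1 log2 units apart, and array 1 of both SSC populations lay between them and the CD51+ BMSCs.

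Bmp7, a ligand needed for kidney and eye development, had the smallest range among the ligands. Its chosen probe set read 6.09 and 7.02 in P-SSCs (arrays 1 and 2), 5.91 and 7.21 in BM-SSCs, 6.60 in Nes+ BMSCs, 5.98 and 6.11 in CD51+ BMSCs, 6.71 and 6.72 in Osx+ cells, and 5.06 and 4.98 in CD45+ cells. It was one of the 2 genes that read higher on array 2 of both SSC populations. Its second probe set gave another picture, at 3.68 and 4.14 in P-SSCs (arrays 1 and 2), 3.59 and 3.72 in BM-SSCs, 3.84 in Nes+ BMSCs, 4.80 and 5.16 in CD51+ BMSCs, 6.47 and 6.93 in Osx+ cells, and 3.76 and 3.29 in CD45+ cells. On that probe set the Osx+ cells were above all other arrays, followed by the CD51+ BMSCs.

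Among the receptors, Bmpr1a, the type I receptor with the broadest role in bone, read 8.48 and 7.32 in P-SSCs (arrays 1 and 2), 9.08 and 6.86 in BM-SSCs, 8.54 in Nes+ BMSCs, 8.69 and 8.69 in CD51+ BMSCs, 8.67 and 8.80 in Osx+ cells, and 5.54 and 5.88 in CD45+ cells. Acvr1, the type I receptor that is mutated in fibrodysplasia ossificans progressiva in humans, read 8.91 and 4.02 in P-SSCs (arrays 1 and 2), 9.61 and 5.58 in BM-SSCs, 8.89 in Nes+ BMSCs, 8.81 and 8.90 in CD51+ BMSCs, 9.58 and 9.60 in Osx+ cells, and 6.06 and 5.88 in CD45+ cells. For both, the stromal arrays other than array 2 of the SSC populations lay within 1 log2 unit of each other and above the CD45+ cells. Array 2 of each SSC population was below the CD45+ cells for Acvr1, although not for Bmpr1a.

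Bmpr2, the type II receptor, was less clearly separated from the CD45+ cells. It read 10.09 and 4.58 in P-SSCs (arrays 1 and 2), 10.18 and 6.61 in BM-SSCs, 9.17 in Nes+ BMSCs, 9.81 and 9.88 in CD51+ BMSCs, 9.71 and 9.63 in Osx+ cells, and 8.19 and 8.03 in CD45+ cells. Its 2 SSC arrays numbered 2 were again below the CD45+ cells. Bmpr1b, the type I receptor of cartilage condensations and ovary, was dim throughout, at 3.47 and 3.88 in P-SSCs (arrays 1 and 2), 3.09 and 4.01 in BM-SSCs, 3.23 in Nes+ BMSCs, 3.09 and 2.94 in CD51+ BMSCs, 3.09 and 3.50 in Osx+ cells, and 2.41 and 2.57 in CD45+ cells. These values carry no detection call, and whether the gene was expressed at all could not be judged from them. The counts given below include Bmpr1b and carry this limit.

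Against CD45+ cells, the question was which of these genes mark the skeletal populations. In CD51+ BMSCs, 3 of the 9 genes were higher at an adjusted p under 0.05 with limma, namely Bmp2, Bmp4 and Bmp5, against 4.25% of all genes called higher. The difference was 6.08 ± 1.41 log2 units (SE, adjusted p = 0.0495) for Bmp2, 5.28 ± 0.93 (adjusted p = 0.0191) for Bmp4 and 5.25 ± 0.99 (adjusted p = 0.0235) for Bmp5. Bmpr1a, with a difference of 2.98 ± 0.70, missed the threshold (adjusted p = 0.0526). All 9 genes read higher on both CD51+ arrays than on both CD45+ arrays, which held for 31.5% of all genes. The 15 blood cell markers averaged 9.28 and 9.07 in CD51+ BMSCs, against 11.21 and 11.22 in CD45+ cells. The 12 granulocyte and myeloid markers averaged 11.62 and 11.39, against 12.16 and 12.14, with 2 lower and 1 higher. The part of these markers in the differences of the BMP genes was not tested. Of other markers, 8 of 12 for chondrocytes, 7 of 11 for fibroblasts and periosteum and 8 of 10 for skeletal muscle were higher in CD51+ BMSCs than in CD45+ cells. In sorted bulk samples, fewer cells of a type and less RNA per cell cannot be told apart.

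In Osx+ cells, 4 of the 9 genes were higher than in CD45+ cells, against 4.91% of all genes. They were Bmp2 (difference 6.46 ± 1.41, adjusted p = 0.0286), Bmp6 (4.82 ± 0.86, adjusted p = 0.0124), Bmp5 (4.11 ± 0.99, adjusted p = 0.0407) and Bmpr1a (3.03 ± 0.70, adjusted p = 0.0364). Bmp4, at 2.04 ± 0.93, did not pass (adjusted p = 0.303). All 9 genes again read higher on both Osx+ arrays than on both CD45+ arrays, as did 36.7% of all genes. The spread in these tests is pooled over all populations, so the 2 outlying SSC arrays enter it. The markers of other cell types moved with this comparison. All 15 blood cell markers were lower in Osx+ cells, with averages of 4.04 and 5.40, against 11.21 and 11.22 in CD45+ cells. All 12 chondrocyte markers were higher, with averages of 12.98 and 13.09 in Osx+ cells, against 3.42 and 3.39 in CD45+ cells, as were all 9 measured osteoblast markers, with 11.02 and 11.16, against 3.88 and 3.77. Their part in the differences of the BMP genes was not tested.

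Both counts depended on single arrays, and so did the share of all genes called higher. Wherever a count was 0, that share was below the 4.25% (CD51+ BMSCs) and 4.91% (Osx+ cells) found with all arrays. The CD51+ count was 0 when any 1 of the CD51+, Osx+ or CD45+ arrays was left out, 5 without either P-SSC array (7.99% of all genes were then higher) and 4 without either BM-SSC array (5.59%). The Osx+ count was 0 without any 1 of the Osx+ or CD45+ arrays, 1 without either CD51+ array (2.91% of all genes were then higher), 6 without either P-SSC array (8.64%) and 5 without either BM-SSC array (6.21%). Without array 2 of both SSC populations, all 9 genes were higher in CD51+ BMSCs (19.1% of all genes were) and all 9 in Osx+ cells (22.0% of all genes). The 9 include the dim Bmpr1b, for which expression could not be judged.

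In P-SSCs, 0 of the 9 genes passed against CD45+ cells with limma, where 3.09% of all genes were higher and 9.39% lower, and 7 of the 9 were higher at an unadjusted p under 0.05, as were 15.6% of all genes. In BM-SSCs 0 of the 9 passed too, where 2.94% of all genes were higher and 8.02% lower, with 7 higher at an unadjusted p under 0.05, as were 10.3% of all genes. The median difference of the 9 genes was 2.19 log2 units in P-SSCs and 2.25 in BM-SSCs, beside 2.88 in CD51+ BMSCs and 3.03 in Osx+ cells, while the median over all genes was between -0.07 and 0.19. In each SSC population 7 of the 9 genes read higher on both arrays than in CD45+ cells, against 39.4% of all genes in P-SSCs and 31.2% in BM-SSCs. The exceptions were Bmpr2 and Acvr1, whose array 2 lay below the CD45+ cells. Of the 15 blood cell markers, 14 were lower in P-SSCs and 13 in BM-SSCs than in CD45+ cells, and of the 9 osteoblast markers 2 were higher in P-SSCs and 7 in BM-SSCs. The part of these markers in the differences of the BMP genes was not tested.

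The largest differences from CD45+ cells in P-SSCs were those of Bmp2 (3.61 ± 1.41, adjusted p = 0.128), Bmp4 (3.25 ± 0.93, adjusted p = 0.0675) and Bmp5 (3.14 ± 0.99, adjusted p = 0.0838). In BM-SSCs the same 3 ligands led, with Bmp2 at 4.65 ± 1.41 (adjusted p = 0.0881), Bmp4 at 3.41 ± 0.93 (adjusted p = 0.0655) and Bmp5 at 3.39 ± 0.99 (adjusted p = 0.0784). For Bmpr2 the difference was -0.78 ± 1.70 in P-SSCs and 0.28 ± 1.70 in BM-SSCs. Its direction in P-SSCs turned to 1.98 without array 2.

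Without array 2 of both SSC populations, 9 of the 9 genes were higher in P-SSCs than in CD45+ cells, where 24.4% of all genes were higher, and 8 of 9 in BM-SSCs, where 18.0% were. Bmpr1b was the gene that did not pass in BM-SSCs. Each SSC population is then a single array, whose spread is taken from the other populations, so these counts do not measure its own. In P-SSCs the count was 4 without their array 1, of which 3 were higher (29.2% of all genes) and Bmpr2 was lower (32.4%), 4 higher without their array 2 (5.74%), and 4 higher without either BM-SSC array (6.92%). In BM-SSCs 5 were higher without either P-SSC array (8.07% of all genes), 2 without their own array 1 (7.21%) and 2 without their own array 2 (3.06%).

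**Figure D3:**
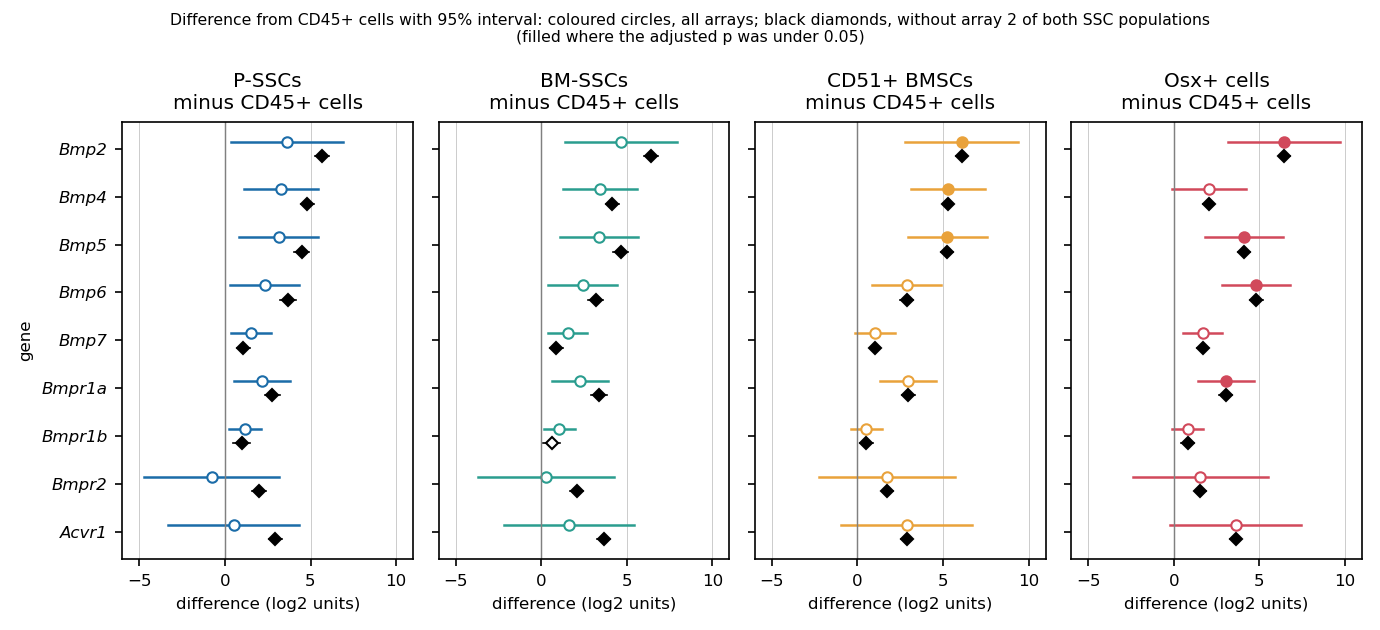
Difference of each gene from CD45+ cells in log2 units (horizontal axis) for the 4 replicated stromal populations, with 95% intervals. Coloured circles use all arrays, black diamonds leave out array 2 of the P-SSCs and of the BM-SSCs, and filled symbols passed at an adjusted p under 0.05. The diamonds of each SSC population rest on a single array of it, and Bmpr1b was dim throughout. With all arrays 3 genes passed in CD51+ BMSCs and 4 in Osx+ cells, and without the 2 arrays all passed except Bmpr1b in BM-SSCs.

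Set against Osx+ cells, CD51+ BMSCs had more Bmp4 and Bmp5 signal and less Bmp6, Bmp7 and Acvr1 signal, but with all arrays none of the 9 genes passed. With limma 0 of 9 passed, against 3.19% of all genes in either direction, and 1 gene, Bmp4, was higher at an unadjusted p under 0.05, as were 7.19% of all genes. Bmp4 differed by 3.25 ± 0.93 log2 units (adjusted p = 0.188) and Bmp6 by -1.95 ± 0.86 (adjusted p = 0.579). On the arrays themselves, 3 genes were above the Osx+ cells on both CD51+ arrays (Bmp4, Bmp5 and Bmpr2) and 4 below them (Bmp2, Bmp6, Bmp7 and Acvr1). Over all genes, 30.7% were above without overlap and 33.9% below.

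With the second array of both SSC populations left out, 5 of the 9 genes differed between CD51+ BMSCs and Osx+ cells. Bmp4 (3.25 ± 0.13) and Bmp5 (1.14 ± 0.15) were higher, where 17.2% of all genes were higher, and Bmp6 (-1.95 ± 0.16), Bmp7 (-0.67 ± 0.13) and Acvr1 (-0.74 ± 0.14) were lower, where 12.9% of all genes were lower. The same differences were measured with and without the 2 arrays, since neither belongs to these populations, and only the error changed. Leaving out either P-SSC array gave 1 gene that passed as higher (4.09% of all genes).

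Markers of other cell types moved with this comparison. The 15 blood cell markers averaged 9.28 and 9.07 in CD51+ BMSCs, against 4.04 and 5.40 in Osx+ cells, and 10 of them were higher. The 12 chondrocyte markers averaged 8.95 and 9.32 in CD51+ BMSCs, against 12.98 and 13.09 in Osx+ cells, and 7 of them were lower. The 11 measured fibroblast and periosteum markers averaged 12.25 and 12.46 in CD51+ BMSCs, against 8.41 and 9.25 in Osx+ cells, with 2 higher, and the 10 skeletal muscle markers 7.36 and 8.21, against 5.09 and 5.02, with 4 higher. The part of these markers in the differences of Bmp4, Bmp5, Bmp6, Bmp7 and Acvr1 was not tested.

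The SSC populations were next compared with Osx+ cells. With limma 0 of the 9 genes passed in P-SSCs (1.08% of all genes in either direction) and 0 of 9 in BM-SSCs (0.824%), with 1 gene lower at an unadjusted p under 0.05 in each (12.7% of all genes in P-SSCs and 7.84% in BM-SSCs). That gene was Bmp6, whose difference was -2.51 ± 0.86 log2 units in P-SSCs (adjusted p = 0.252) and -2.40 ± 0.86 in BM-SSCs (adjusted p = 0.432). Bmp6 was below both Osx+ arrays on all 4 SSC arrays. Bmp4 differed by 1.22 ± 0.93 in P-SSCs (adjusted p = 0.376) and by 1.38 ± 0.93 in BM-SSCs (adjusted p = 0.648), and its direction in P-SSCs turned to -0.35 without array 1 of the P-SSCs, which also gave 4 genes that passed as lower in that comparison (26.9% of all genes).

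On the 9 remaining arrays each SSC population is a single array, so only the sizes of the differences from Osx+ cells are given. Any error would come from the other populations. In P-SSCs the largest were those of Bmp4 (2.78), Bmp6 (-1.13), Bmp2 (-0.79), Acvr1 (-0.68) and Bmp7 (-0.63). In BM-SSCs the largest were those of Bmp4 (2.12), Bmp6 (-1.65) and Bmp7 (-0.80). In array 1 of both SSC populations, as in CD51+ BMSCs, Bmp4 was thus above and Bmp6 below the Osx+ cells. All 3 comparisons share the Osx+ arrays. The chondrocyte markers, which averaged 12.98 and 13.09 in Osx+ cells, averaged 6.52 and 5.11 in P-SSCs and 7.69 and 6.07 in BM-SSCs, and their part in these differences was not tested.

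Against CD51+ BMSCs, 0 of the 9 genes passed in P-SSCs (0.841% of all genes in either direction) and 0 of 9 in BM-SSCs (0.830%) with limma, and 0 had an unadjusted p under 0.05 in either (23.7% of all genes in P-SSCs and 12.8% in BM-SSCs). Bmp4 differed by -1.87 ± 0.93 log2 units in BM-SSCs (adjusted p = 0.462). Leaving out array 1 of the P-SSCs gave 6 genes that passed as lower in P-SSCs than in CD51+ BMSCs (31.2% of all genes). On the 9 arrays, Bmp6 was higher in P-SSCs than in CD51+ BMSCs by 0.83 ± 0.20 (12.3% of all genes were higher), the opposite direction to the -0.56 ± 0.86 with all arrays. Bmp5 was lower on the 9 arrays (-0.77 ± 0.19, where 20.5% of all genes were lower), as with all arrays (-2.12 ± 0.99). In BM-SSCs, Acvr1 was higher than in CD51+ BMSCs on the 9 arrays by 0.76 ± 0.17 (5.42% of all genes), again opposite to the -1.26 ± 1.64 with all arrays, and Bmp4 was lower (-1.12 ± 0.16, where 11.8% of all genes were lower). Of the 10 skeletal muscle markers 5 were lower in each SSC population than in CD51+ BMSCs, and of the 15 blood cell markers 5 were lower in P-SSCs and 3 in BM-SSCs, and their part in these differences was not tested.

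P-SSCs and BM-SSCs were compared directly, since both carry the Mx1 label in different tissues. With limma 0 of the 9 genes passed and 0% of all genes did, and 0 had an unadjusted p under 0.05 (2.04% of all genes). On array 1 the 9 genes differed between P-SSCs and BM-SSCs by -0.74 (Bmp2) to 0.66 (Bmp4) log2 units, and on array 2 by -2.04 (Bmpr2) to 0.47 (Bmpr1a). For 5 of the 9 genes, Bmp4 and Bmp6 among them, the sign differed between the 2 array numbers. The labels do not give these numbers as pairs, although array 2 departed alike from array 1 in both populations (r = 0.784 over all probe sets). The standard errors of these differences, between 0.40 and 1.70 log2 units, were larger than most of the differences on array 1.

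BM-SSCs and Nes+ BMSCs share the Nestin reporter, and the second is a single array. With limma 0 of the 9 genes passed and 0% of all genes did, and 0 had an unadjusted p under 0.05 (0.841% of all genes). The array 1 values of BM-SSCs differed from the Nes+ array by -0.68 (Bmp7) to 1.01 (Bmpr2) log2 units. On the 9 arrays, the comparison was of 1 array with 1 array, and Bmpr2, Acvr1 and Bmp4 passed as higher (19.6% of all genes) and Bmp7 as lower (10.9% of all genes). With all arrays the first 3 had the opposite sign, at -0.78 ± 2.08 for Bmpr2, -1.30 ± 2.01 for Acvr1 and -0.14 ± 1.14 for Bmp4. No difference between these populations themselves can be replicated from 1 array each.

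Over all 6 populations at once, 0 of the 9 genes passed limma's F test at an adjusted p under 0.05, against 8.60% of all genes. At an unadjusted p under 0.05 there were 5, namely Bmp2, Bmp4, Bmp5, Bmp6 and Bmpr1a, against 26.0% of all genes. The adjusted count was 5 without array 1 of the P-SSCs (45.6% of all genes), 4 without their array 2 (17.8%), 2 without array 1 of the BM-SSCs (17.7%), 1 without their array 2 (12.3%) and 9 on the 9 arrays (75.9%). Of the 24 probe sets, 1 passed, the second of Bmp7 (adjusted p = 0.0105). It was lower in P-SSCs than in Osx+ cells by 2.79 ± 0.36 on the log2 scale (difference -2.79, adjusted p = 0.0197) and lower in BM-SSCs (difference -3.05 ± 0.36, adjusted p = 0.0161). In Osx+ cells it was higher than in CD45+ cells by 3.17 ± 0.36 (adjusted p = 0.00176), where the chosen Bmp7 probe set gave 1.69 ± 0.50 (adjusted p = 0.0840).

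Against CD45+ cells, the other probe sets gave the same direction for most genes. Of the 15 probe sets that were not chosen, 14 averaged higher in CD51+ BMSCs and 13 in Osx+ cells than in the CD45+ cells. The 3 probe sets of Bmp5 differed by 5.25, 4.32 and 2.78 log2 units between CD51+ BMSCs and CD45+ cells. All 3 probe sets of Bmp7, Bmpr1b, Bmpr2 and Acvr1 also averaged higher in CD51+ BMSCs, the smallest of these differences being 0.07, for Acvr1. That dim Acvr1 probe set read 6.96 and 6.31 on array 2 of P-SSCs and BM-SSCs, above the CD45+ cells (4.18 and 3.96), unlike the chosen one. The remaining Acvr1 probe set read 4.63 and 5.02 there, against 5.12 and 4.77 in CD45+ cells. The dimmest Bmp5 probe set was the one member probe set that also passed in P-SSCs (1.84 ± 0.46, adjusted p = 0.0475) and BM-SSCs (2.08 ± 0.46, adjusted p = 0.0347). For Bmpr1a, 4 of 6 probe sets differed by 2.58 to 3.09 between CD51+ BMSCs and CD45+ cells and the other 2, both dim, by 0.72 and -0.04.

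**Figure D4:**
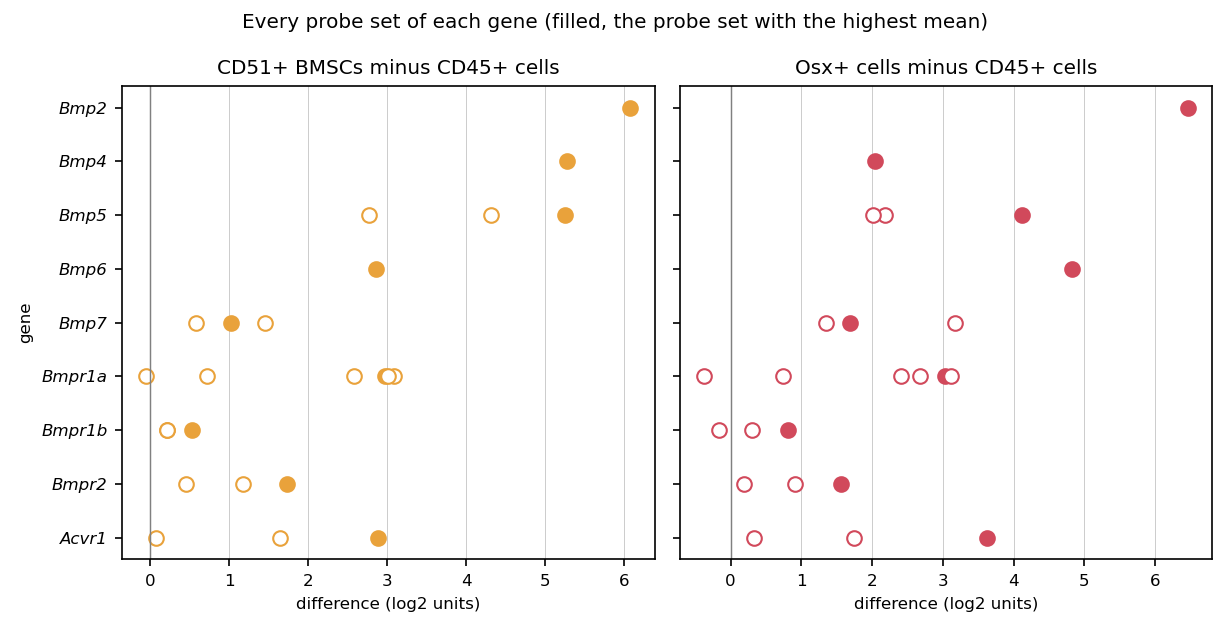
Difference in log2 units (horizontal axis) for each of the 24 probe sets of the 9 genes, in CD51+ BMSCs minus CD45+ cells (left) and Osx+ cells minus CD45+ cells (right). Filled circles are the chosen probe sets and open circles the others. The 3 Bmp5 probe sets spread from 2.78 to 5.25 in CD51+ BMSCs, and a second Bmp7 probe set lies at 3.17 in Osx+ cells, beyond the chosen one at 1.69.

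The remaining machinery of the pathway was followed in 69 other measured genes. Against CD45+ cells, 12 were higher in P-SSCs, 11 in BM-SSCs, 12 in CD51+ BMSCs and 12 in Osx+ cells, and 0 were lower in any of the 4 (at an unadjusted p under 0.05, 2 were lower in P-SSCs, where 23.3% of all genes were, 2 in BM-SSCs (18.8%), 0 in CD51+ BMSCs (9.48%) and 1 in Osx+ cells (12.6%)). Against these stand the 2.94% to 4.91% of all genes that were higher in the same comparisons. The counts on the 9 arrays below are given for CD51+ BMSCs and Osx+ cells only, since each SSC population is then a single array. Beside those against CD45+ cells stand 19.1% of all genes in CD51+ BMSCs and 22.0% in Osx+ cells on the 9 arrays. On those arrays, genes of the ligand, receptor, processing and Smad lists were also lower than in CD45+ cells in 1 or more of the 4 populations. The antagonist and target lists had no lower gene there. All comparisons with CD45+ cells share the CD45+ arrays, and the genes are not independent of each other.

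Among the other ligands, 3 of 9 were higher in Osx+ cells than in CD45+ cells. They were Gdf10 (6.91 ± 1.74, adjusted p = 0.0494), Bmp8a (4.80 ± 0.49, adjusted p = 0.00108) and Gdf5, a ligand of joint formation (2.33 ± 0.35, adjusted p = 0.00631). Bmp8a and Gdf5 also passed in P-SSCs, and Bmp8a in BM-SSCs, while 0 of the 9 passed in CD51+ BMSCs (2 were higher at an unadjusted p under 0.05, as were 10.1% of all genes). Of the 9, 2 on the 9 arrays were higher than in CD45+ cells in CD51+ BMSCs (19.1% of all genes) and 3 in Osx+ cells (22.0%). Bmp8a (-2.88 ± 0.49, adjusted p = 0.0267) and Gdf5 (-1.93 ± 0.35, adjusted p = 0.0373) were both lower in CD51+ BMSCs than in Osx+ cells, where 0.984% of all genes were lower.

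The antagonists, secreted proteins most of which bind BMPs directly, were higher than in CD45+ cells for 6 of 16 genes in CD51+ BMSCs. The leading ones were Fstl1 (9.59 ± 1.66, adjusted p = 0.0181), Nbl1 (5.39 ± 1.25, adjusted p = 0.0490), Bmper (5.34 ± 0.84, adjusted p = 0.0135) and Fst, which encodes follistatin (4.02 ± 0.63, adjusted p = 0.0134). In Osx+ cells 3 of 16 passed, namely Chrdl1 (6.93 ± 1.15, adjusted p = 0.00916), Fstl1 (6.84 ± 1.66, adjusted p = 0.0426) and Bmper (4.57 ± 0.84, adjusted p = 0.0144). P-SSCs had 2 (Fst and Chrd) and BM-SSCs 3 (Fstl1, Fst and Chrd). Between CD51+ BMSCs and Osx+ cells 0 of the 16 passed with all arrays (3 were higher at an unadjusted p under 0.05, as were 7.19% of all genes). On the 9 arrays 6 were higher (17.2% of all genes) and 4 lower (12.9%). The part of the fibroblast markers given above, which were highest in CD51+ BMSCs, was not tested for these genes.

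Of the 7 genes that process BMP precursors or release BMPs from antagonists, 4 were higher in CD51+ BMSCs than in CD45+ cells, 3 in Osx+ cells, 3 in P-SSCs and 2 in BM-SSCs. Bmp1, a protease that cleaves chordin despite its name, was higher in all 4, by 3.0 ± 0.70 in P-SSCs (SE, adjusted p = 0.0388), 3.53 ± 0.70 in BM-SSCs (adjusted p = 0.0244), 4.34 ± 0.70 in CD51+ BMSCs (adjusted p = 0.0148) and 4.02 ± 0.70 in Osx+ cells (adjusted p = 0.0115). Pcsk5, a proprotein convertase, was also higher in all 4. Pcsk6, a related convertase, passed in all but the BM-SSCs. The counts of higher genes on the 9 arrays were 4 of 7 in CD51+ BMSCs (19.1% of all genes) and 4 in Osx+ cells (22.0%).

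Of the 16 target genes, 3 were higher than in CD45+ cells in P-SSCs, 4 in BM-SSCs, 1 in CD51+ BMSCs and 3 in Osx+ cells. Msx1, a homeobox target, passed in all 4, by 2.26 ± 0.37 in P-SSCs (SE, adjusted p = 0.0115), 1.98 ± 0.37 in BM-SSCs (adjusted p = 0.0186), 2.61 ± 0.37 in CD51+ BMSCs (adjusted p = 0.00936) and 2.37 ± 0.37 in Osx+ cells (adjusted p = 0.00669). Dlx5 and Sp7, regulators of osteoblast differentiation, passed in P-SSCs, BM-SSCs and Osx+ cells, and Hey1 in BM-SSCs. Sp7 was lower in CD51+ BMSCs than in Osx+ cells (-3.60 ± 0.42, adjusted p = 0.00623), a population sorted on an Osterix reporter. Of the 12 Smads and Smad regulators, 0 passed with limma against CD45+ cells in any of the 4 populations. At an unadjusted p under 0.05, 0 of the 12 were higher in P-SSCs (15.6% of all genes were) and 1 in BM-SSCs (10.3%). By the same threshold 3 were higher in CD51+ BMSCs (10.1% of all genes) and 3 in Osx+ cells (1825 of the 18193 genes). On the 9 arrays 9 were higher in CD51+ BMSCs (19.1% of all genes) and 8 in Osx+ cells (22.0%).

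Of the 12 other receptors and co-receptors, Eng, which encodes the CD105 used in the sort, was higher than in CD45+ cells in P-SSCs (1.84 ± 0.35, adjusted p = 0.0209) and BM-SSCs (1.48 ± 0.35, adjusted p = 0.0445). Rgma, a BMP co-receptor, was higher in P-SSCs (2.41 ± 0.58, adjusted p = 0.0418) and CD51+ BMSCs (2.58 ± 0.58, adjusted p = 0.0441). Acvrl1, a type I receptor best known from endothelium, was higher in CD51+ BMSCs than in Osx+ cells (3.23 ± 0.50, adjusted p = 0.0194), where 2.21% of all genes were higher. On the 9 arrays 9 of the 12 were higher than in CD45+ cells in CD51+ BMSCs (19.1% of all genes) and 7 in Osx+ cells (22.0%). Likewise, 10 of the 16 antagonists were higher than in CD45+ cells in CD51+ BMSCs and 13 in Osx+ cells, against the same shares. Of the 16 targets, 10 were higher in CD51+ BMSCs and 13 in Osx+ cells on those arrays, against the same shares.

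The genes whose pattern was most like each member were taken by Pearson's r over the 11 arrays, which share the low values of array 2 in both SSC populations, and are given as a description. Bmp4 was closest to C1s1 (r = 0.998), Fbln2 and Fmo1, and Bmp5 to Adamts5 (r = 0.995), Septin8 and Gask1b. Bmp2 was closest to Sertad4 (r = 0.994), Foxc1 and Efs, and Bmp6 to Slc7a2 (r = 0.988), Mfge8 and Crispld1. Among the receptors, Bmpr1a was closest to Gpc4 (r = 0.993), Bmpr2 to Il6st (r = 0.992) and Acvr1 to Calu (r = 0.992) and the BMP target Bambi (r = 0.991). Bmp7 (1810062G17Rik, r = 0.974) and the dim Bmpr1b (Igfals, r = 0.946) had looser matches. Between members, Bmp2 and Bmpr1a ran closely together (r = 0.969) and Bmp4 and Bmp6 did not (r = 0.541).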

How the data were processed

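RNA of sorted cells was hybridized to Affymetrix mouse arrays. The deposited values are log2 signals, which the authors background-corrected, normalized and summarized per probe set by RMA. The submitters' processing notes name limma. Here 64 control probe sets were left out and the other 45037 were fitted in 1 linear model of 6 populations over 11 arrays with limma 3.58.1 in R 4.3.3, which had 5 residual and 2.65 prior degrees of freedom. P-values were adjusted by Benjamini-Hochberg over all 45037, with a threshold of 0.05. The fit was first run on simulated data whose spread was taken from CD51+ BMSCs, Osx+ cells and CD45+ cells only. That run therefore did not cover the wider spread between the SSC arrays. Annotation gave 1 symbol to 34945 probe sets, several to 932 and none to 9160. Percentages of all genes are over 18193 genes with 1 probe set each. The log2 scale carries no counts, so the number of arrays limits the precision. Adjusted p values rest on a spread between arrays that is pooled over the 6 populations. The arrays are described as biological repeats.

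All members were named. From the other pathway lists, at most 4 genes that passed were named per list and comparison, those with the largest differences first, and the 3 genes with the highest correlation were taken for each member. Members and lists were chosen with earlier results of these data known. The alternatives changed the normalization, centring, filter, variance model, probe set, arrays, weights and block.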

Additional observations from a re-analysis of the deposited data

How the results depend on the processing

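Counts of the 9 genes that passed moved with the processing as follows, and the cause was not tested. In the fits that left out arrays the share of all genes that passed moved too, as given above. For the other alternatives that share was not counted, so their counts cannot be set against all genes. Quantile normalization of the deposited values gave 1 in P-SSCs and 1 in BM-SSCs against CD45+ cells and 1 by the F test. The labels do not say whether the array numbers pair the samples. Array 2 deviated alike in P-SSCs and BM-SSCs (r = 0.784) but in no other pair of populations (-0.267 to 0.0115), and the reason was not tested. A replicate block on the array number gave 1, 1 and 2 in the same 3 tests and changed no other count by over 1.5 times. The second probe set of each gene gave 1 in P-SSCs and 1 in BM-SSCs against Osx+ cells and 1 by the F test. Array weights, which took the SSC arrays down to 0.0896 and 0.144, gave 3 in BM-SSCs, 9 in CD51+ BMSCs and 9 in Osx+ cells against CD45+ cells, 4 in CD51+ BMSCs against Osx+ cells and 9 by the F test. Fits of only the populations compared gave 9, 9 and 5 for CD51+ BMSCs and Osx+ cells against CD45+ cells and CD51+ BMSCs against Osx+ cells. Without array 2 of P-SSCs and of BM-SSCs the counts were 9 (P-SSCs), 8 (BM-SSCs), 9 (CD51+ BMSCs) and 9 (Osx+ cells) against CD45+ cells. They were 5, 3 and 5 for P-SSCs, BM-SSCs and CD51+ BMSCs against Osx+ cells, 2 and 2 for the SSC populations against CD51+ BMSCs, 4 for BM-SSCs against Nes+ BMSCs, and 9 by the F test. Leaving out each array in turn gave 0 to 4 (P-SSCs), 0 to 5 (BM-SSCs), 0 to 5 (CD51+ BMSCs) and 0 to 6 (Osx+ cells) against CD45+ cells. The ranges were 0 to 4 for P-SSCs and 0 to 1 for CD51+ BMSCs against Osx+ cells, 0 to 6 for P-SSCs against CD51+ BMSCs and 0 to 5 by the F test. The P-SSC against BM-SSC count was 0 under every alternative run.

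Over all 99 differences, the 9 genes in 11 comparisons, the sign reversed for 27 without array 2 of P-SSCs and of BM-SSCs, for 11 under quantile normalization and for 8 of the 66 with a second probe set, and for 50 of the 1080 values with 1 array left out. The other alternatives reversed 0. Quantile normalization reversed Bmp7 in P-SSCs (0.82) and BM-SSCs (0.56) against Osx+ cells and in BM-SSCs against Nes+ BMSCs (0.11). The second probe set reversed Bmpr2 in P-SSCs against CD45+ cells (0.35), and Bmpr2 (1.06) and Acvr1 (0.61) in BM-SSCs against Nes+ BMSCs. Without both arrays 2 the reversed values were 1.98 (Bmpr2, P-SSCs against CD45+ cells), 0.83 (Bmp6, P-SSCs against CD51+ BMSCs), 0.76 (Acvr1, BM-SSCs against CD51+ BMSCs), and 0.60 (Bmp4), 1.01 (Bmpr2) and 0.72 (Acvr1) in BM-SSCs against Nes+ BMSCs. With 1 array left out, the values against CD45+ cells ran between -3.53 and 1.98 for Bmpr2 and between -1.94 and 2.94 for Acvr1 in P-SSCs, and between -1.50 and 2.07 for Bmpr2 and between -0.39 and 3.64 for Acvr1 in BM-SSCs. Against Osx+ cells they ran between -0.35 and 2.78 for Bmp4 and between -0.63 and 0.30 for Bmp7 in P-SSCs, between -0.80 and 0.50 for Bmp7 in BM-SSCs and between -0.111 and 0.0185 for Bmpr1a in CD51+ BMSCs. Against CD51+ BMSCs they ran between -1.94 and 0.83 for Bmp6 in P-SSCs and between -3.27 and 0.76 for Acvr1 in BM-SSCs. Against Nes+ BMSCs the BM-SSC values ran between -0.89 and 0.60 for Bmp4, between -0.68 and 0.62 for Bmp7, between -2.56 and 1.01 for Bmpr2 and between -3.32 and 0.72 for Acvr1. The filter on dim probe sets left out Bmpr1b, the block left out the Nes+ array, and 6 of the 9 genes had a second probe set, so these settings gave no value for the rest. Signal over background was not recorded, which limits Bmpr1b most.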
